A study of Capra hircus with 4 samples.

Results

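Kinesins are motor proteins that use ATP to move along or reshape microtubules. The family was taken here as every gene in the deposited tables whose symbol is KIF followed by digits and optional letters, or KIFC followed by a digit, which gave 40 of 20326 genes. The cells are secondary hair follicle stem cells cultured from the dorsal skin of cashmere goats (Capra hircus). They were sampled in April, at early anagen, and in October, at mid anagen, anagen being the growth phase of the hair cycle. Phase and month coincide in all 4 libraries. Hair cycle phase, season and anything else that differed between the months therefore cannot be told apart. Each phase has 2 libraries, 1 from a female and 1 from a male, which the labels call biological replicates. No ages, genotypes or treatments are used here, and the labels do not say how many animals stood behind a library. The labels put the comparison between early and mid anagen at the centre of the design. Where a gene is given a pair of values for a month, the female library comes first and the male library second.

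Mitotic kinesins build the spindle, move chromosomes and complete cell division, and their transcripts accumulate in dividing cells around G2 and mitosis. Transport kinesins carry vesicles, organelles and ciliary cargo in dividing and resting cells alike. Other members work in cilia, at centrioles or in microtubule turnover. By these textbook roles the 40 genes were divided into 13 mitotic, 15 transport and 12 other members, the last including KIF1BP, which matches by its symbol but encodes a kinesin-binding protein and not a motor. KIF28P and KIF26A appear in the tables only as descriptions of LOC102185944 and LOC106503395 and were outside the rule, as was CENPE, the kinetochore kinesin, whose symbol differs.

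The deposited values are abundances per gene that were taken as TPM rescaled between libraries, that is, as divided by transcript length. Comparisons of levels between genes, sums and ratios included, rest on this reading. The read depth behind them is unknown. Differences between phases are given as mid minus early on the scale of log2(value + 1), which understates differences of low genes, and were tested with limma across the 12486 genes that reached 1 in at least 2 libraries. Of the kinesins 32 were tested, 12 mitotic, 12 transport and 8 other. KIF26B passed this filter only through the mid anagen libraries, which fixed its direction. In this fit the spread within a phase is that between its female and its male library. Limma also draws the variance of each gene toward a trend over all tested genes. P-values cover these 4 libraries only.

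Markers of the labelled cells and of other cells also differed between the phases. Basal keratinocyte genes were abundant in all libraries, but the leading keratins had lower values in October. KRT14 was at 20587 and 23511 in April and at 9603 and 8956 in October, a difference of -1.25. KRT5 was at 15892 and 18092 in April and at 7281 and 9234 in October, a difference of -1.05. Neither passed the threshold. The other listed basal markers had smaller differences, -0.26 for ITGB4, -0.23 for COL17A1, -0.04 for ITGA3 and 0.20 for TP63. The groups overlapped in COL17A1, ITGA3 and TP63. The stem cell factor LHX2 rose from 9.54 and 6.94 in April to 31.7 and 32.1 in October (limma adjusted p = 0.0431). Other bulge markers, SOX9, TCF7L1, TCF7L2, TBX1 and NFATC1, had both October values above both April values, as did 31.5% of all tested genes. None of these was called. LGR5 was at 1.00 and 0.352 in April and at 4.48 and 2.90 in October. ITGA6, the most abundant bulge marker, overlapped, at 380 and 473 in April and at 366 and 390 in October. CD34, a bulge marker in some species, was listed at 0 in April and at 0.136 and 0.0136 in October. CD200 overlapped, at 0.954 and 0.890 in April and at 0.613 and 1.26 in October. FOXI3 also overlapped and reached at most 0.0221. LGR6 was at 0.0977 and 0.0484 in April and at 0.535 and 0.856 in October. KRT15, also listed as a bulge marker, was not found by its symbol. The 12 fibroblast and dermal papilla markers summed to 21.6 and 81.3 in April and to 363 and 346 in October, with VIM at 20.6 and 78.5 in April and at 187 and 298 in October. Of its 9 tested markers 8 passed the filter only through the October libraries, so no count of them is given. Of these COL1A1 was at 0.179 and 0.987 in April and at 58.6 and 19.8 in October, and DCN at 0 and 0.0774 in April and at 21.0 and 3.38 in October. Endothelial markers summed to at most 0.936, melanocyte markers to at most 7.34 and immune markers to at most 4.91 in any library, with CDH5, DCT and PTPRC at 0 throughout. Nerve and Schwann cell markers summed to 31.3 and 25.6 in April and 55.1 and 61.2 in October. The part of these cells in the results that follow was not tested. In bulk RNA, fewer cells of a type and less RNA per cell cannot be told apart.

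At early anagen the mitotic kinesins together were about as abundant as the transport kinesins, and at mid anagen they were less abundant. The mitotic class summed to 493 and 540 in April, against 253 and 380 in October. The transport class summed to 452 and 474 in April and 528 and 536 in October. The ratio of the mitotic to the transport sum, which does not depend on how a library is scaled, was 1.09 and 1.14 in April and 0.479 and 0.71 in October. Both mid libraries lay below both early libraries in this ratio. The mitotic share of all kinesin abundance was 46.5% and 48.0% early and 28.0% and 36.8% mid, while the other members took between 9.95% and 13.5% throughout.

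**Figure D1:**
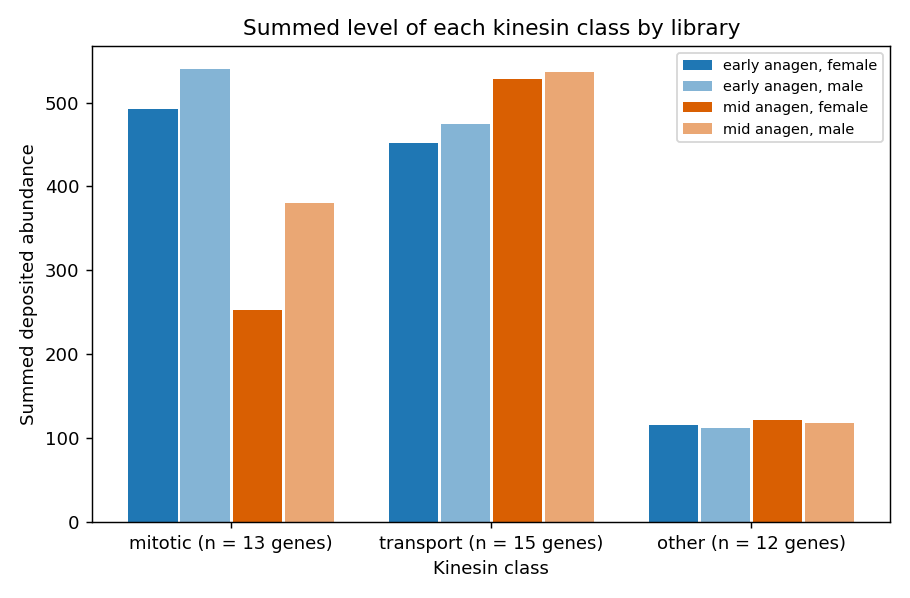
Summed deposited abundance (y axis, linear from 0) of the mitotic, transport and other kinesins (x axis) in the early female, early male, mid female and mid male libraries, 1 bar each. The mitotic sums of 253 and 380 at mid anagen lie below the early sums of 493 and 540, while the transport sums of 528 and 536 lie above the early sums of 452 and 474.

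No kinesin passed the threshold over all genes. The limma fit called 0 of 32 tested kinesins at an adjusted p of 0.05, where 0.304% of all tested genes were called, 0.0801% lower and 0.224% higher. At an unadjusted p under 0.05 it placed 8 of 12 mitotic kinesins lower at mid anagen, where 14.7% of all tested genes were, and 0 of 12 transport kinesins in either direction, where 13.2% of all tested genes were higher. In 11 of the 12 tested mitotic kinesins both mid values lay below both early values, against 30.9% of all tested genes. The exception was KIF23. The median difference was -0.66 for mitotic and 0.11 for transport kinesins, beside 0.01 for all tested genes. Without the mid male library 5 mitotic kinesins were called lower, namely KIF22, KIF14, KIFC1, KIF2C and KIF18B, against 1.43% of all tested genes, and the mitotic median was -0.97. Without the mid female library 0 were called, 3 were lower at an unadjusted p under 0.05, against 13.4% of all tested genes, and the median was -0.37. Over all tested genes, more were called without the mid female library than without the mid male library. In both fits the lone October library was assumed to vary like the April libraries. After each library was rescaled to a common total the mitotic median was -0.33, beside 0.32 for all genes. In that fit 2 of 12 mitotic kinesins were lower at an unadjusted p under 0.05, against 5.18% of all tested genes. With the replicate number, which is the same as sex, as a block, limma called 5 mitotic kinesins lower, where it called 6.93% of all tested genes lower, and KIF7 among the other kinesins higher, where it called 7.34% higher.

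**Figure D2:**
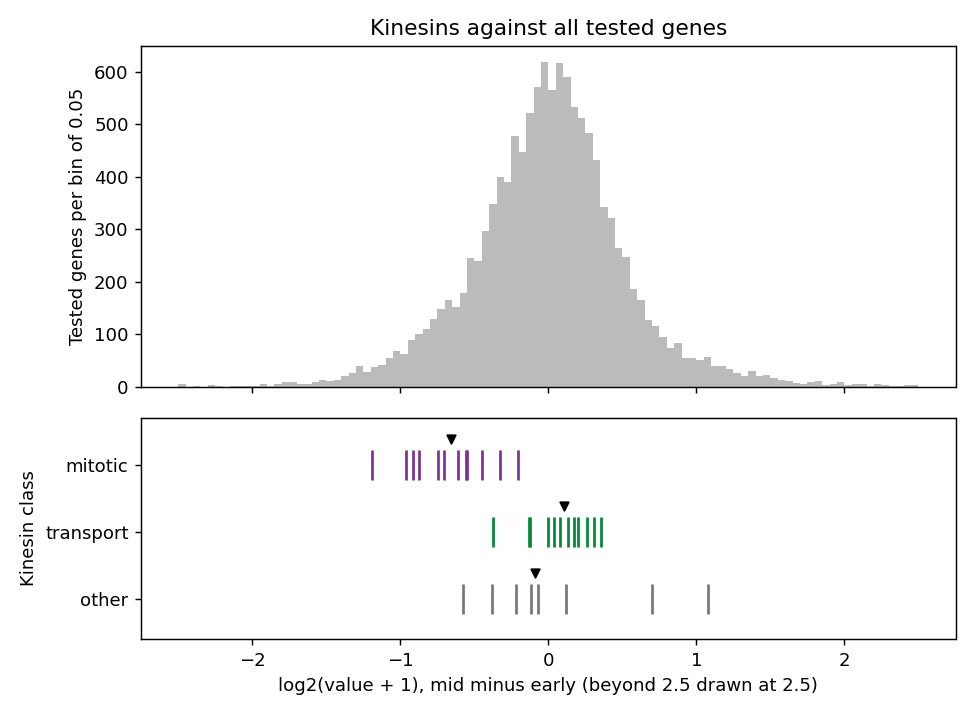
Upper panel, number of tested genes (y axis) by difference between mid and early anagen in log2(value + 1) (x axis), with genes beyond 2.5 drawn at 2.5. Lower panel, 1 tick per tested kinesin by class, with a black triangle at the class median, which lies at -0.66 for mitotic, 0.11 for transport and -0.09 for other kinesins.

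Among motors that set up the bipolar spindle, KIF11 (GeneID 102174270), the kinesin-5 that pushes the poles apart, was at 47.2 and 49.0 in April and at 26.2 and 37.1 in October. Its difference was -0.61 (SE 0.20, limma adjusted p = 0.134). KIFC1 (GeneID 102168781), a minus-end motor that focuses spindle poles, was at 78.3 and 87.6 in April and at 33.9 and 58.7 in October, a difference of -0.88 (SE 0.28, limma adjusted p = 0.126). KIF15, which helps to hold the poles apart once the spindle has formed, was at 10.4 and 11.0 in April and at 5.41 and 8.81 in October. In all 3 genes both mid values lay below both early values, as they did in 30.9% of all tested genes. The mid female library was the lowest of the 4.

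The chromosome-arm motors included the mitotic kinesin with the smallest p. KIF22 (GeneID 102191666), a chromokinesin that pushes chromosome arms outward, was at 64.9 and 77.7 in April and at 24.4 and 38.1 in October. The October value was 37.7% of the April value for the females and 49.0% for the males, a difference of -1.19 (SE 0.24, limma adjusted p = 0.0778). KIF4A (GeneID 102174640), a chromokinesin that also works at the central spindle, was at 22.8 and 25.3 in April and at 14.2 and 18.2 in October, a difference of -0.55 (SE 0.17, limma adjusted p = 0.126).

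Of the motors that shorten microtubules or limit their growth, KIF2C (GeneID 102188823), the depolymerase that corrects faulty chromosome attachments, was at 44.6 and 51.6 in April and at 19.9 and 29.3 in October. Its difference was -0.96 (SE 0.22, limma adjusted p = 0.0841). Its relative KIF2A, a depolymerase also used outside mitosis, was at 37.0 and 35.8 in April and at 37.8 and 41.3 in October, a difference of 0.12. Within each library KIF2C stood above KIF2A at early anagen, with ratios of 1.21 and 1.44, and below it at mid anagen, with ratios of 0.527 and 0.709. KIF18B, a plus-end regulator of astral microtubules, was at 17.2 and 19.4 in April and at 7.68 and 15.1 in October, and KIF18A, which dampens chromosome movements, at 9.10 and 7.70 in April and at 5.86 and 7.16 in October. KIF2B was listed at 0 in all libraries.

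The motors of cytokinesis had differences from -0.92 for KIF14 to -0.20 for KIF23. KIF20A, which brings the chromosomal passenger complex to the central spindle, was the most abundant mitotic kinesin, at 95.4 and 112 in April and at 48.4 and 77.9 in October. KIF14 (GeneID 102171999), a partner of citron kinase at the midbody, was at 13.7 and 14.8 in April and at 5.04 and 9.77 in October, a difference of -0.92 (SE 0.29, limma adjusted p = 0.126). KIF20B was at 30.8 and 30.3 in April and at 19.4 and 25.2 in October. KIF23, the motor subunit of centralspindlin, was at 58.5 and 53.6 in April and at 42.9 and 54.9 in October, so that its groups overlapped and its difference was -0.20 (SE 0.18, limma adjusted p = 0.489). The ratio of KIF23 to KIF20A within a library was 0.614 and 0.477 in April and 0.886 and 0.705 in October. RACGAP1, the partner of KIF23 in centralspindlin, was at 98.2 and 109 in April and at 79.9 and 84.7 in October, and the kinetochore motor CENPE overlapped between groups, at 19.2 and 16.1 in April and at 14.4 and 19.3 in October.

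**Figure D3:**
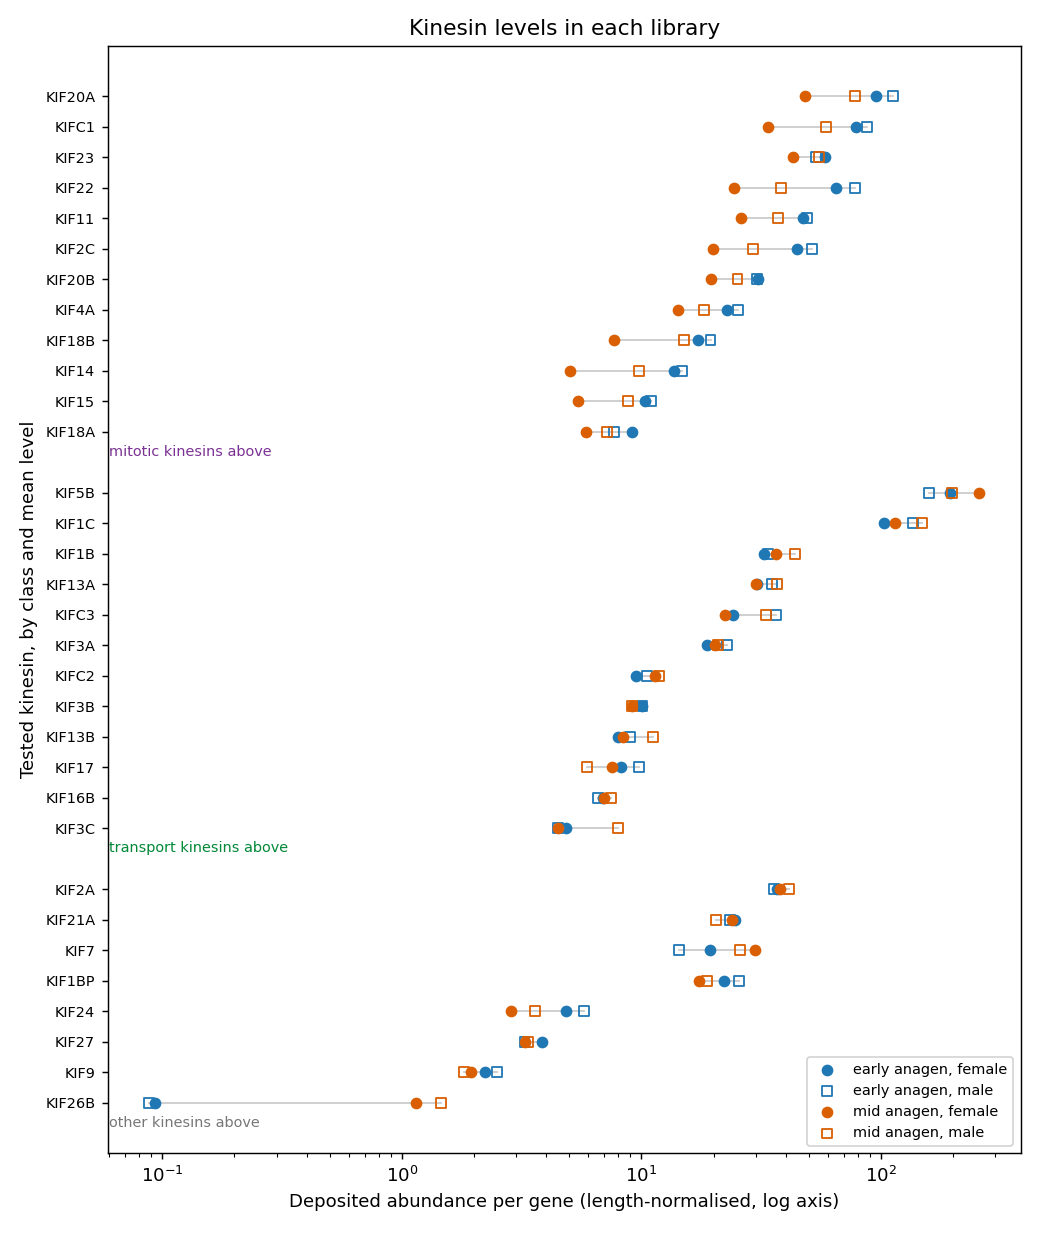
Deposited abundance (x axis, log scale) of the 32 tested kinesins (y axis, by class and mean level) in each library, with blue for early and orange for mid anagen, filled circles for female and open squares for male libraries, and a grey line over the range. The orange symbols lie left of both blue symbols in 11 of 12 mitotic kinesins, and KIF5B and KIF1C are the most abundant members.

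The size of the difference within the mitotic class varied with gene span. Over the 12 tested mitotic kinesins the Spearman correlation of span with the difference was 0.74, against 0.31 over all tested genes and -0.07 over the transport class, given as descriptions over genes that share the 4 libraries. KIF22, KIF2C and KIFC1 span 16.0, 18.0 and 15.1 kb by the RefSeq annotation of assembly ARS1.2, and KIF18A and KIF20B span 79.9 and 82.8 kb. At the extremes, KIF20A, which spans 8.56 kb, had a difference of -0.74, and KIF4A, which spans 127 kb, one of -0.55. With the trend on gene span removed, the mitotic median was -0.67 and the transport median turned to -0.11, and the correlation within the mitotic class was 0.41.

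The mitotic kinesins differed more in the female than in the male pair of libraries, a pair being the mid and the early library of 1 sex. In 12 of 12 the difference was lower in the female pair, as it was in 48.3% of all tested genes. The class median was -0.90 in the female and -0.42 in the male pair, while the medians of all genes were 0.02 and 0.01. KIF14 was at 36.8% of its early value in the mid female and at 66.2% in the mid male library, and KIF18B at 44.7% and 77.6%. The fibroblast markers COL1A1 and DCN were highest in the mid female library, and VIM in the mid male library. The difference of VIM was 3.12 in the female and 1.91 in the male pair. The part of these markers in the mitotic differences was not tested. Whether the sexes differ was not tested, since 1 library of each sex per phase leaves no residual for it.

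**Figure D4:**
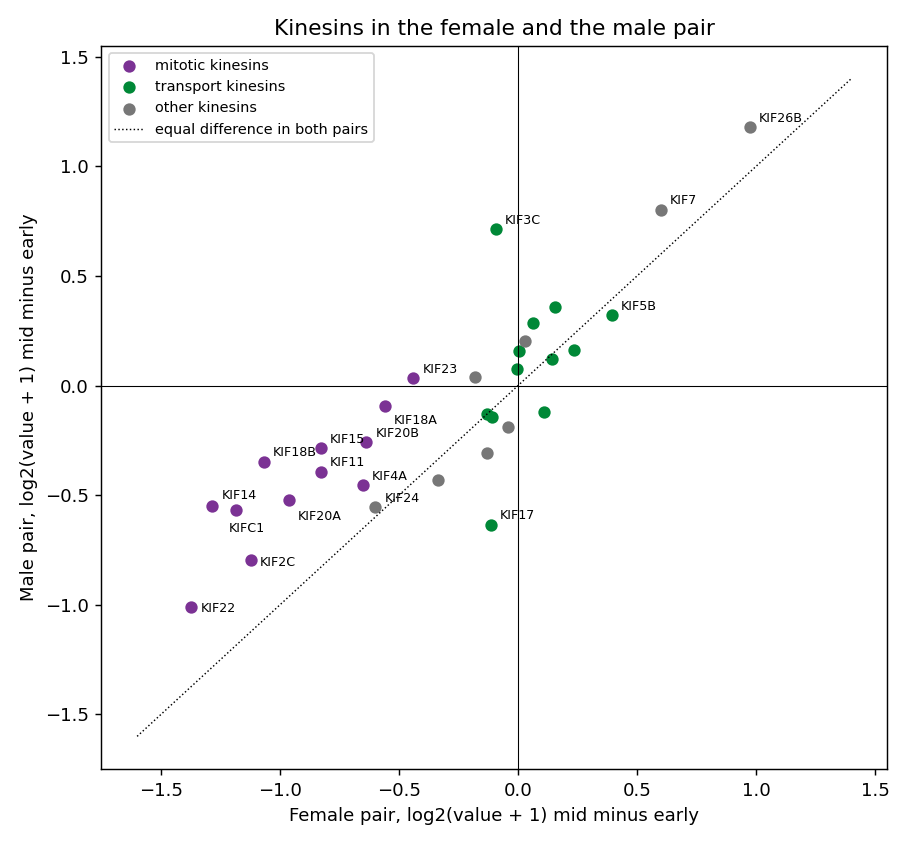
Difference between mid and early anagen in log2(value + 1) in the female pair (x axis) and the male pair (y axis), 1 point per tested kinesin, coloured by class, with a dotted line where both pairs are equal. All 12 mitotic kinesins lie above the dotted line, from KIF22 at -1.37 and -1.01 to KIF23 at -0.44 and 0.03.

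The transport class was led by KIF5B and KIF1C at both phases. KIF5B (GeneID 102184256), the widely expressed heavy chain of conventional kinesin, was at 195 and 159 in April and at 257 and 199 in October, a difference of 0.36 (SE 0.21, limma adjusted p = 0.322). Its neuronal relatives KIF5A and KIF5C stayed below 1 in all libraries, and KIF5B held at least 99.7% of the summed KIF5 level in each. KIF1C, a vesicle motor, was at 103 and 136 in April and at 114 and 148 in October, where each male library lay above the female library of its phase and the groups overlapped. KIF1B (GeneID 102170718), which carries mitochondria and vesicles, was at 32.6 and 33.8 in April and at 36.4 and 43.7 in October, a difference of 0.26 (SE 0.16, limma adjusted p = 0.331). KIF1A, the neuronal member of that group, reached at most 0.0436. INCA1 overlaps KIF1C in the RefSeq table and was at 1.56 to 4.31. How reads of the overlap were assigned was not tested.

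The endosome and minus-end motors had differences from -0.13 for KIFC3 to 0.20 for KIFC2, and none passed the threshold. KIF13A, a motor of recycling endosomes, was at 30.3 and 35.0 in April and at 30.2 and 37.0 in October. KIF13B (GeneID 102188499) was at 7.95 and 8.99 in April and at 8.36 and 11.2 in October, a difference of 0.17 (SE 0.19, limma adjusted p = 0.578), and KIF16B, an early endosome motor, at 6.92 and 6.59 in April and at 6.95 and 7.47 in October. KIFC3, a minus-end motor found at cell junctions, was at 24.1 and 36.5 in April and at 22.3 and 33.0 in October. KIFC2 (GeneID 102176056) was at 9.52 and 10.5 in April and at 11.4 and 11.9 in October, a difference of 0.20 (SE 0.15, limma adjusted p = 0.405).

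Values of the kinesin-2 motors, which drive transport into cilia, lay in both directions. KIF3A was at 18.8 and 22.7 in April and at 20.4 and 20.8 in October, and KIF3B, its usual partner, at 10.1 and 10.1 in April and at 9.14 and 9.16 in October. KIF3C (GeneID 102189593), an alternative partner of KIF3A, was at 4.87 and 4.50 in April and at 4.50 and 8.02 in October, high only in the mid male library (difference 0.31, SE 0.27, limma adjusted p = 0.477). KIF17 (GeneID 102190277), which works as a homodimer, was at 8.22 and 9.74 in April and at 7.52 and 5.92 in October, a difference of -0.37 (SE 0.18, limma adjusted p = 0.244). In the transport class as a whole 4 members had both mid values above both early values, 2 had them below and 6 overlapped, against 31.5%, 30.9% and 37.7% of all tested genes. A missed threshold does not show that transport kinesins were equal between phases.

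Among the other members whose direction the filter did not fix, KIF7 and KIF24 had the smallest p. KIF7 (GeneID 102185507), the ciliary kinesin that regulates GLI factors in Hedgehog signalling, was at 19.3 and 14.3 in April and at 29.8 and 25.7 in October, with no overlap and a difference of 0.70 (SE 0.19, limma adjusted p = 0.101). KIF24 (GeneID 102168909), which acts at centrioles to restrain cilium formation, was at 4.85 and 5.76 in April and at 2.86 and 3.61 in October, a difference of -0.58 (SE 0.19, limma adjusted p = 0.133). KIF26B (GeneID 102186789), a member of the family that lacks motor activity, was at 0.0936 and 0.0883 in April and at 1.15 and 1.46 in October. It was tested only because of its October values, so no p is given for it. KIF1BP was at 22.1 and 25.6 in April and at 17.3 and 18.8 in October. KIF21A was at 24.6 and 23.5 in April and at 23.9 and 20.5 in October. KIF27 was at 3.84 and 3.25 in April and at 3.27 and 3.38 in October, and KIF9 at 2.22 and 2.49 in April and at 1.94 and 1.82 in October.

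The 8 untested members were KIF2B, KIF5A, KIF5C, KIF1A, KIF19, KIF25, KIF21B and KIF12, with values from 0 to 2.53. The highest of these was KIF19, at 0.522 and 0.150 in April and at 2.53 and 0.642 in October. KIF21B was at 0.231 and 0.163 in April and at 1.05 and 0.603 in October, and KIF5C at 0.121 and 0.0686 in April and at 0.333 and 0.421 in October. In these 3 genes both mid values lay above both early values, as they did in 31.5% of all tested genes. The 3 genes did not reach 1 in at least 2 libraries and were not tested.

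Most of the listed genes that work with the mitotic kinesins also had lower values at mid anagen. Of 16 spindle partners 0 were called, against 0.304% of all tested genes, and the median difference was -0.57. At an unadjusted limma p under 0.05, 10 were lower, against 14.7% of all tested genes. Both mid values lay below both early values in 14, against 30.9% of all tested genes. The groups overlapped in CENPE, given above, and in NUMA1, which had a difference of 0.16. The 3 with the smallest p were CDK1, the mitotic kinase, at 97.8 and 103 in April and 41.9 and 58.3 in October, BIRC5, a passenger complex subunit, at 77.7 and 92.7 in April and 34.5 and 48.9 in October, and AURKB, the passenger complex kinase, at 31.6 and 37.6 in April and 11.6 and 19.1 in October. Of 12 proliferation markers 0 were called, with a median of -0.95. At an unadjusted limma p under 0.05, 11 of these markers were lower, against 14.7% of all tested genes. They were led by CCNB1, a mitotic cyclin, at 208 and 245 in April and 84.4 and 110 in October, PCNA, the replication clamp, at 139 and 154 in April and 60.0 and 81.3 in October, and CCNB2, a second mitotic cyclin, at 72.7 and 78.7 in April and 29.8 and 43.5 in October. Their limma adjusted p-values were 0.0724, 0.0741 and 0.0775. The ratio of KIF20A to MKI67, a marker of cycling cells, was 1.60 and 1.78 in April and 1.96 and 1.77 in October.

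Of 15 regulators of mitotic transcription 0 were called, and the median was -0.30. At an unadjusted limma p under 0.05, 5 were lower, against 14.7% of all tested genes. FOXM1, a transcription factor that drives many G2 and mitosis genes, was at 23.6 and 26.4 in April and at 11.1 and 18.0 in October (limma adjusted p = 0.124). E2F8, a repressor of the E2F family, was at 10.9 and 10.5 in April and at 4.97 and 7.90 in October, and RBL1, a pocket protein, at 17.6 and 16.0 in April and at 10.3 and 13.0 in October. Of 7 tested tubulins, the subunits of the tracks, 0 were called. At an unadjusted limma p under 0.05, 4 were lower, against 14.7% of all tested genes. TUBB4B was at 645 and 868 in April and at 271 and 395 in October, TUBG1, which nucleates microtubules, at 85.1 and 109 in April and at 47.2 and 62.5 in October, and TUBB at 767 and 997 in April and at 379 and 557 in October.

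Partners of the transport kinesins had values in both directions. Of 14 light chains and adaptors 0 were called, and the median was 0.17. At an unadjusted limma p under 0.05, 1 was higher, against 13.2% of all tested genes, and 1 was lower, against 14.7%. KIFAP3, which joins KIF3A and KIF3B to cargo, was at 21.9 and 21.5 in April and at 27.6 and 30.3 in October (limma adjusted p = 0.147). RHOT2, a mitochondrial adaptor, was at 54.0 and 67.4 in April and at 32.0 and 47.2 in October, and MAPK8IP1, a scaffold bound by light chains, at 16.5 and 19.3 in April and at 20.5 and 29.1 in October.

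Dynein is the motor of the opposite direction. Of 26 tested genes of dynein, dynactin and their adaptors and regulators, 0 were called, with a median of 0.02. At an unadjusted limma p under 0.05, 4 were lower, near the share of 14.7% of all tested genes. In the other direction 1 was higher, against 13.2% of all tested genes. The smallest p belonged to 3 small subunits, DYNLL2 at 70.1 and 76.0 in April and 45.1 and 48.8 in October, DCTN3 at 113 and 130 in April and 79.9 and 67.8 in October, and DYNLT1 at 80.2 and 100.1 in April and 56.3 and 55.3 in October. Of 15 intraflagellar transport genes, the cargo trains of kinesin-2, 0 were called, with a median of -0.06. At an unadjusted limma p under 0.05, 1 was lower, against 14.7% of all tested genes. That gene was IFT22, at 25.4 and 24.9 in April and 18.4 and 14.4 in October. It was followed by IFT74, at 10.0 and 9.61 in April and 14.4 and 12.0 in October, and IFT20, at 52.8 and 67.3 in April and 49.9 and 42.9 in October.

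**Figure D5:**
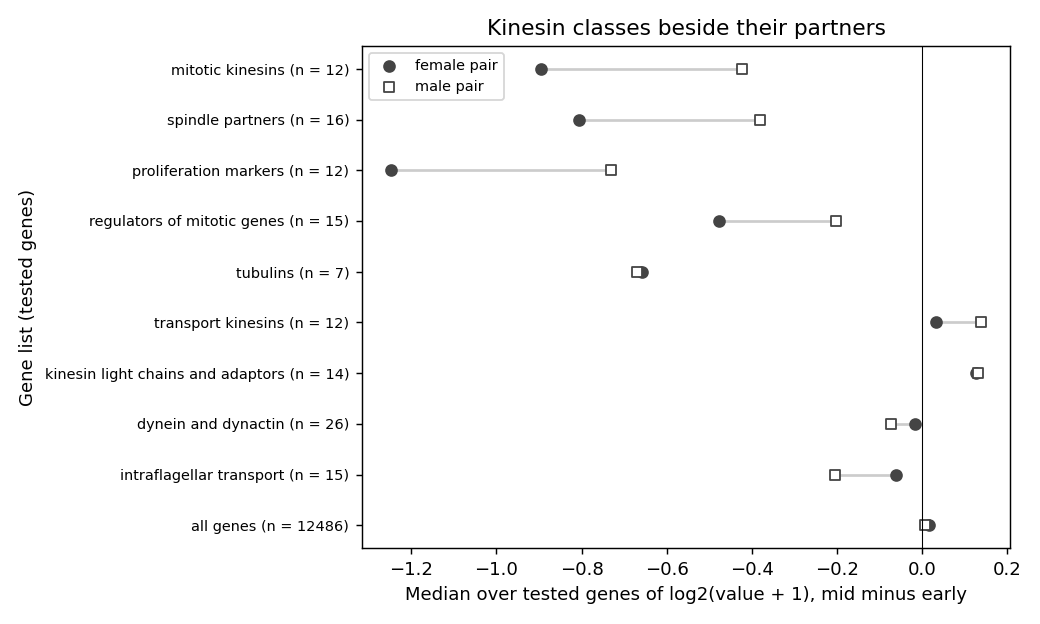
Median difference between mid and early anagen in log2(value + 1) (x axis) over the tested genes of each list (y axis), with filled circles for the female and open squares for the male pair. Mitotic kinesins lie at -0.90 and -0.42 beside spindle partners at -0.81 and -0.38, while transport kinesins lie at 0.03 and 0.14.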

How the data were processed

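RNA-seq libraries of 4 samples were used, 2 per phase. The deposited values are a signal per gene, taken as TPM rescaled between libraries since their totals differ. Per the submitters' processing notes, the tools were kallisto 0.46.1 together with sleuth 0.30.0. The genome build, the annotation and how transcripts became genes were not given in the sources used here. Library totals ran from 844960 to 1186966. With no counts in the files, genes were tested by limma 3.58.1 with an intensity trend in R 4.3.3, with phase as the only term, on log2(value + 1), and Benjamini-Hochberg adjustment over 12486 genes. The procedure was tested on simulated data. Gene spans came from the RefSeq table, which held 20294 of 20326 identifiers.

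Per-library values were given for every tested kinesin, with full statistics for the 6 mitotic, 6 transport and 3 other members with the smallest p. The third of these other members, KIF26B, is given without statistics because the filter fixed its direction, and KIF23 has them as the exception among mitotic kinesins, chosen after its values were seen. Each partner list is given by its 3 genes with the smallest p. RACGAP1, CENPE, MKI67, the marker genes and the ratios within libraries were chosen after their values were seen. The members and lists were chosen with earlier results of these data known. Alternatives tried were other pseudocounts, filters and scalings, removal of the span trend, no intensity trend, a replicate block and leaving out each library.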

Additional observations from a re-analysis of the deposited data

Results flagged for a closer look

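In 5 of 32 tested kinesins the difference had opposite signs in the female and the male pair, on the log2(value + 1) scale. It did so in 2933 of the 12486 tested genes, a larger share. With 1 library per sex and phase, the difference between the pairs was not tested. KIF23 was at -0.44 in the female and 0.034 in the male pair, and KIF3C at -0.093 and 0.71. KIF3A was at 0.11 and -0.12, and KIF27 at -0.18 and 0.041. KIF13A was at -0.0047 and 0.074.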

How the results depend on the processing

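With 2 libraries per phase and unknown depth, precision rests on 4 values per gene and on the variance trend over all tested genes. The number of genes called, 38 as deposited, was 18 with a pseudocount of 0.1, 0 with no filter (3843 under an unadjusted p of 0.05), 685 after rescaling to a common total and 0 to 733 leaving out 1 library, where the lone library of a phase is assumed to vary like the other phase. The fits without the April female and without the April male library each made 0 calls, with 2897 and 1445 genes under an unadjusted p of 0.05. Called mitotic kinesins numbered 0 to 5 when 1 library was left out. Rescaling to a common total moved the median of all genes from 0.01 to 0.32, put the mitotic median at -0.33 and the transport median at 0.43, lowered the mitotic kinesins at an unadjusted p under 0.05 from 8 to 2, and called 1 other kinesin, KIF26B, whose direction the filter fixed. The mitotic minus transport difference, -0.77 as deposited, was then -0.76, and -0.55 with the span trend removed. The mitotic median kept its sign in all 13 alternatives. The transport median was -0.11 with the span trend removed and ran from -0.033 to 0.19 leaving out 1 library.

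Samples of the 2 phases share replicate numbers, which equal sex, and nothing in the labels pairs the animals. Same-numbered deviations from the phase means correlated at 0.29 over all tested genes. The replicate block raised the calls to 1782, with 5 mitotic kinesins lower, KIF22, KIF2C, KIF14, KIFC1 and KIF20A, and 2 other kinesins higher, KIF7 and KIF26B, the latter with its direction fixed by the filter.

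Signs of differences that passed no threshold turned in these cases, where the cause was not tested. After rescaling to a common total KIF23 was at 0.13, KIFC3 at 0.21, KIF3A at 0.32, KIF3B at 0.18, KIF21A at 0.21, KIF27 at 0.20 and KIF9 at 0.013. With the span trend removed KIF13A was at -0.22, KIF13B at -0.086 and KIF16B at -0.23. Leaving out 1 library, KIF1C ran from -0.068 to 0.33, KIF13A from -0.11 to 0.18, KIFC3 from -0.42 to 0.16, KIF3A from -0.14 to 0.12, KIF13B from -0.016 to 0.37, KIF3C from -0.046 to 0.67 and KIF27 from -0.16 to 0.024.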
